A study of Mus musculus with 8 samples.

Results

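The comparison described here is that of GHMT-transduced mouse fibroblasts given a TGFb inhibitor with GHMT-transduced fibroblasts given vehicle, both from TTF set 2, with 1 array each. These are 2 of the 8 arrays of the series, and they were chosen by their labels. TTFs are postnatal tail-tip fibroblasts, a primary mixed population that grows out of tail skin, and the labels name this cell type for all samples. Every culture in the series received retroviruses for the cardiac transcription factors Gata4, Hand2, Mef2c and Tbx5 (GHMT), and no untransduced culture is among the samples. The compound, or DMSO as vehicle, was given at the time of infection. After 24 h the virus was exchanged for medium with 10% serum, which was renewed every 3 days. Set 2 also held a culture with an EP4 antagonist, which blocks a receptor of prostaglandin E2, and a culture with a Wnt inhibitor. Set 1 held GHMT, diclofenac, EP4 antagonist, and diclofenac plus PGE2 cultures. The identity and dose of the TGFb inhibitor, the time of harvest, and the mice's age and strain were not among the sources used here.

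TGFb is a secreted protein that is stored in the matrix in a latent form and, once released, assembles type I and type II receptors whose kinase phosphorylates Smad2 and Smad3. These enter the nucleus with Smad4 and turn on matrix, contractile and feedback genes, which in fibroblasts is the route to the myofibroblast state. In cardiac reprogramming, in which fibroblasts are driven towards a cardiomyocyte-like state, TGFb signalling is known as a barrier, and inhibitors of its receptor kinase are used to lower it.

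Levels are log2 values, so a difference of 1 is 2-fold, and levels of different genes cannot be compared on an array. The array covers 22206 transcript clusters, each of which stands for about one gene. A background level was taken for each array from its background probe sets (5.90 in GHMT and 5.96 with the TGFb inhibitor), and 43.7% to 45.7% of the clusters lay above it in the 8 arrays. The median level was 5.14 in both arrays compared. Across clusters, which are not independent replicates, the TGFb inhibitor array correlated with GHMT at 0.988, with the Wnt inhibitor array at 0.990 and with the EP4 antagonist array at 0.986. In bulk RNA, fewer cells of a type and less RNA per cell cannot be told apart.

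The transduced factors were checked first. Mef2c, a muscle transcription factor, was at 18.14 in GHMT and 18.11 with the TGFb inhibitor, and Tbx5 was at 14.34 and 14.40. Hand2 was at 11.68 and 11.93. These differences were 0.25 or smaller. For Gata4, every array of the series was at background (3.91 and 4.09 in this pair), and whether its probes cover the viral Gata4 is not known here.

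In the culture with the inhibitor, many TGFb target, matrix and cell cycle genes were lower and many interferon response genes were higher than in GHMT. Myl1, a light chain of fast skeletal muscle myosin, rose 70.5-fold, and Pmepa1, a feedback gene of the TGFb pathway, fell 14.7-fold. In all, 630 clusters were at least 2-fold higher with the inhibitor (2.84% of 22206) and 560 were at least 2-fold lower (2.52%), 5.36% in either direction. Of the higher clusters 510 were above background in the inhibitor array, and of the lower ones 451 were above background in the GHMT array (5.05% and 4.47% of the clusters above background in either array). At least 4-fold differences numbered 138 higher and 68 lower. The median difference was -0.01 and the quartiles were -0.26 and 0.25.

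With 1 array in each arm these differences have no replicate check of their own. The EP4 antagonist and GHMT were each measured in both TTF sets, and the difference between the sets in that contrast, divided by the square root of 2, had a standard deviation over clusters of 0.37. The standard deviation of the TGFb inhibitor difference over the same clusters was 0.53. A limma fit over all 8 arrays, with the TTF set as a block, gave standard errors and adjusted p-values. Its spread comes from GHMT and the EP4 antagonist with 1 residual degree of freedom, and the lone inhibitor array is assumed to vary like them. In this fit 72 clusters rose (0.324%) and 31 fell (0.14%; 0.464% in either direction) at a Benjamini-Hochberg adjusted p under 0.05. The verbs rose and fell are kept for clusters that passed it.

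In set 2 the inhibitor array was the one that stood apart most often. It was at least 2-fold above each of the other 3 arrays in 155 clusters (0.698%) and at least 2-fold below each of them in 148 (0.666%). For the GHMT array these counts were 22 and 51, for the EP4 antagonist array 58 and 91, and for the Wnt inhibitor array 78 and 39. All differences from GHMT in set 2 share the 1 GHMT array, so a value that is unusual there enters each of them.

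**Figure D1:**
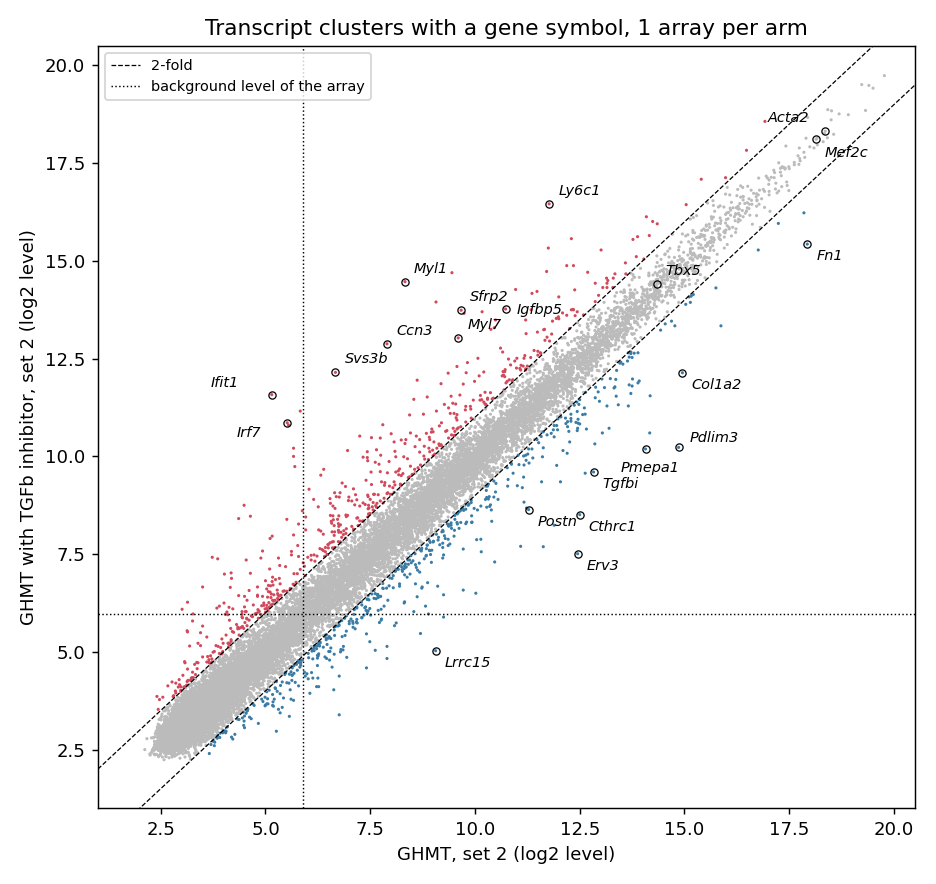
Log2 levels of the transcript clusters with a gene symbol in GHMT (x axis) and in GHMT with the TGFb inhibitor (y axis), set 2, 1 array each. Red points are at least 2-fold higher and blue points at least 2-fold lower with the inhibitor, dotted lines are the background levels 5.90 and 5.96, and circled genes are named. Ifit1, Irf7 and Myl1 lie far above the diagonal, Pmepa1, Pdlim3 and Col1a2 below it, and Mef2c, Tbx5 and Acta2 on it.

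**Figure D2:**
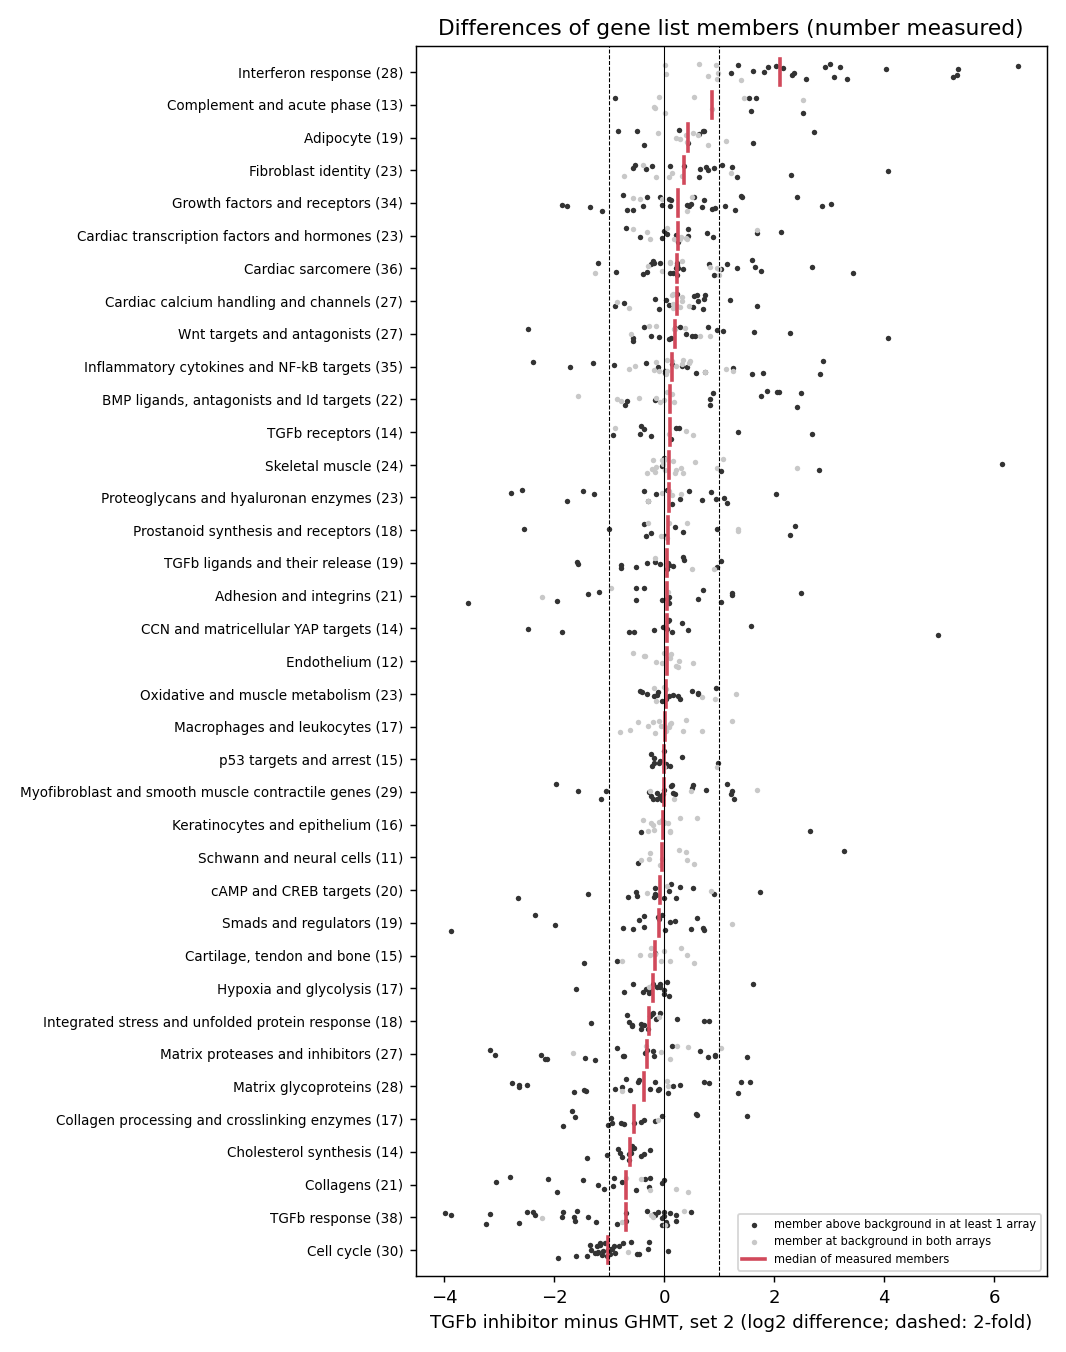
Log2 difference (x axis) of every measured member of the 37 gene lists (rows, number of measured members in brackets) between the TGFb inhibitor and GHMT, set 2, 1 array each. Red bars are list medians, from 2.10 for the interferon response to -1.02 for the cell cycle, and grey points lay at background in both arrays.

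Ligands of the TGFb family and the proteins that store and release them were mostly within 2-fold. Of 19 measured, 1 was at least 2-fold higher (2.84% of all clusters) and 2 were at least 2-fold lower (2.52%), with a list median of 0.06. Tgfb1, the main isoform in fibroblasts, was at 12.97 in GHMT, 12.69 with the EP4 antagonist, 13.64 with the Wnt inhibitor and 11.41 with the TGFb inhibitor. The inhibitor array was the lowest of the 4, 2.95-fold below GHMT (limma difference -1.48 ± 0.27, SE, adjusted p = 0.12). Tgfb2 and Tgfb3, the other isoforms, differed by 0.36 and 0.16. Ltbp2, a matrix protein of the family named for latent-TGFb binding, was at 10.28 in GHMT and 8.70 with the inhibitor. It lay at 10.18 and 11.79 in the other 2 arrays. Thbs1 and Lrrc32, which take part in release and presentation of latent TGFb, differed by -0.17 and -0.07. The higher member was Itgb8, an integrin subunit that activates latent TGFb, at background in GHMT and at 6.62 with the inhibitor, at least 1.65-fold higher.

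The receptor transcripts for the kinase itself showed small differences. Tgfbr1, the type I receptor, was at 11.35 in GHMT and 11.12 with the inhibitor, and Tgfbr2, the type II receptor, was at 13.34 and 13.55. Tgfbr3, the co-receptor betaglycan that presents ligand to the type II receptor, was at 12.19 in GHMT, 11.88 with the EP4 antagonist, 13.35 with the Wnt inhibitor and 14.88 with the TGFb inhibitor. It rose 6.45-fold (limma difference 2.56 ± 0.30, SE, adjusted p = 0.0396), and the inhibitor array was the highest of the 8. Cd109, a co-receptor that dampens TGFb signalling, was 2.53-fold higher, but it was higher still with the EP4 antagonist (9.30 in GHMT, 10.64 with the TGFb inhibitor, 11.17 with the EP4 antagonist). In all, 2 of 14 measured receptors were at least 2-fold higher (2.84% of all clusters) and 0 were at least 2-fold lower (2.52%). The list median was 0.10.

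The Smad transcripts differed little, while those of some feedback regulators of the pathway were lower. Smad2, Smad3 and Smad4 differed by -0.36, 0.48 and 0.01, and Smad7, an inhibitory Smad that TGFb induces in many cells, was at 6.02 and 6.13, just above background. Pmepa1, a membrane protein that TGFb induces and that holds back receptor-activated Smads, was at 14.07 in GHMT and at 10.19 with the TGFb inhibitor. With the EP4 antagonist and the Wnt inhibitor it differed from GHMT by -0.02 and -0.07. It ranged from 13.24 to 13.54 in the 4 arrays of set 1, so the inhibitor array was the only low one of the 8. Pmepa1 fell 14.7-fold (limma difference -3.83 ± 0.27, SE, adjusted p = 0.0178).

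Skil, the Smad co-repressor SnoN, lay between 10.79 and 11.17 in the 7 arrays without the TGFb inhibitor and at 8.83 with it. It fell 5.06-fold (limma adjusted p = 0.046). Ldlrad4, which keeps Smads from the receptor, was at 6.59 in GHMT and at background with the inhibitor, at least 1.55-fold lower (limma adjusted p = 0.0617). Of 19 measured Smads and regulators, these 3 were at least 2-fold lower (2.52% of all clusters). Smad9 was the 1 at least 2-fold higher (2.84%), but at background in both arrays.

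Genes that TGFb induces were lower as a group. Of 38 measured members of the TGFb response list, 16 were at least 2-fold lower and 0 were at least 2-fold higher. Over all clusters the shares were 2.52% and 2.84%. Above background in at least 1 of the 2 arrays were 15 of the 16, and 6 of the 38 lay at background in both. The list median was -0.70 beside -0.01 for all clusters. In 13 of the 16 the inhibitor array was at least 2-fold below each of the other 3 arrays of set 2, and 5 fell in the limma fit. The list median was 0.04 for the Wnt inhibitor and -0.05 for the EP4 antagonist against the same GHMT array. With the mean of the other 3 arrays as control, 17 were at least 2-fold lower and the median was again -0.70.

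Cthrc1, a secreted protein of collagen-producing fibroblasts, was at 12.50 in GHMT, 10.49 with the EP4 antagonist, 11.83 with the Wnt inhibitor and 8.51 with the TGFb inhibitor. It was 15.9-fold lower (limma adjusted p = 0.0582). Tgfbi, a matrix protein named for its induction by TGFb, fell 9.38-fold, from 12.83 to 9.60 (limma adjusted p = 0.0313), with 10.67 for the EP4 antagonist and 12.22 for the Wnt inhibitor. Adam12, a membrane metalloprotease of activated fibroblasts, fell from 10.47 to 7.30 (limma difference -3.18 ± 0.26, SE, adjusted p = 0.0226), and lay at 9.87 and 10.23 in the other 2 arrays.

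Ccn2, the connective tissue growth factor, was at 13.68 in GHMT, 15.05 with the EP4 antagonist, 14.31 with the Wnt inhibitor and 11.83 with the TGFb inhibitor, 3.61-fold lower than GHMT (limma adjusted p = 0.129). Il11, a cytokine that TGFb induces in fibroblasts, was at 6.76 in GHMT and at background with the TGFb inhibitor (at least 1.74-fold lower). It was also at background with the EP4 antagonist (4.04) and with the Wnt inhibitor (5.64), so for Il11 the GHMT array was the high one. Timp1, a protease inhibitor, differed by -0.85, less than 2-fold.

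**Figure D3:**
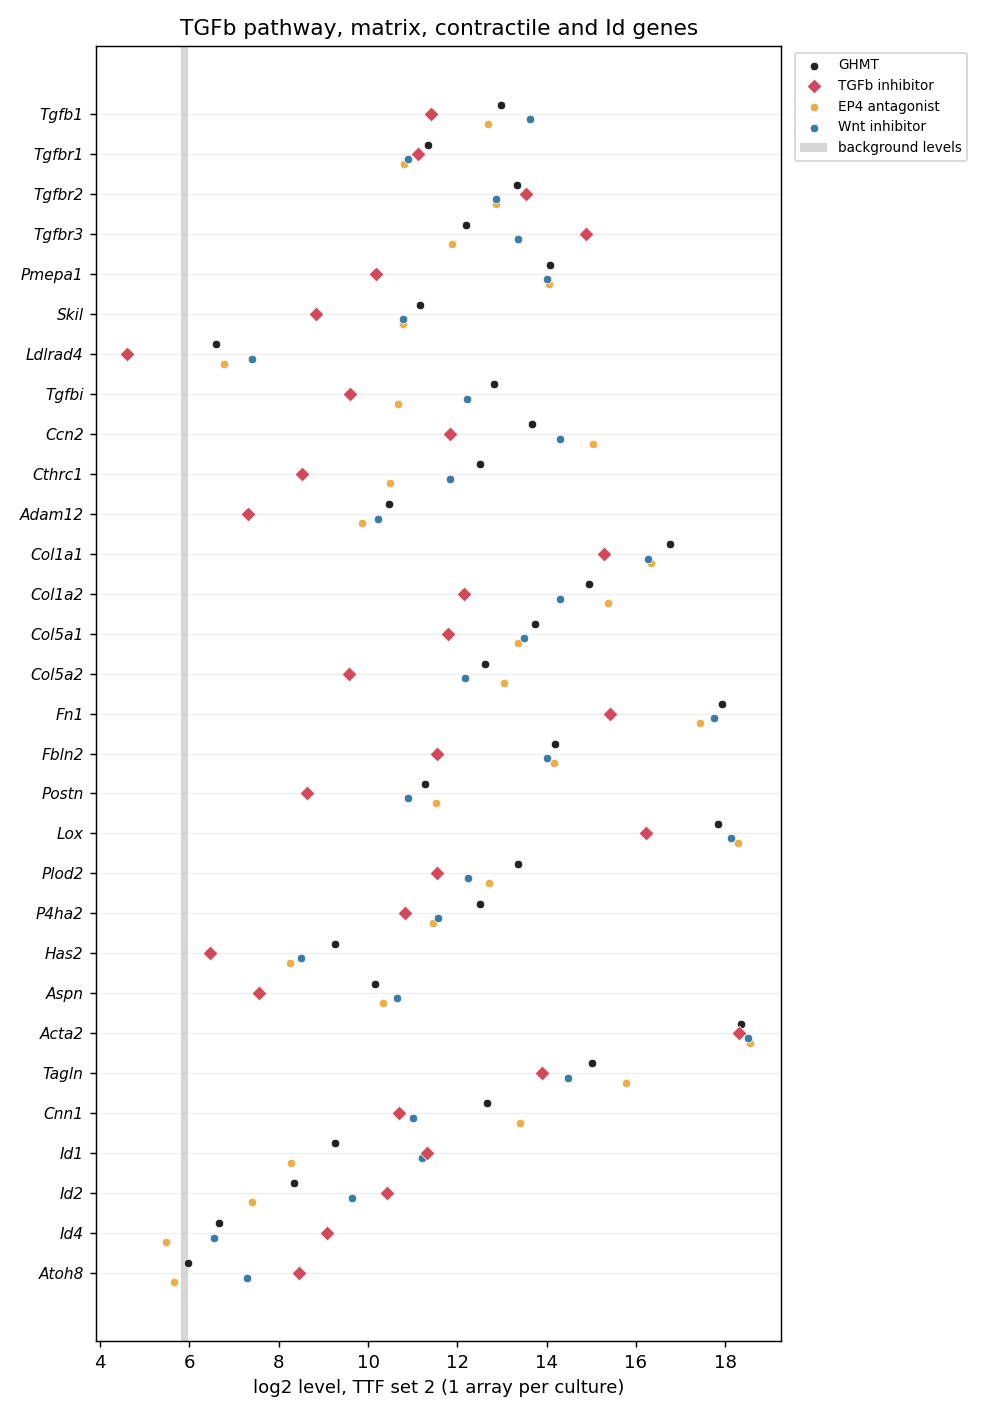
Log2 levels (x axis) in the 4 arrays of set 2, 1 array per culture, of genes of the TGFb pathway, matrix, contractile apparatus and the Id family (rows). Points are shifted vertically so that none hides another, and the grey band spans the background levels. From Pmepa1 to Aspn the TGFb inhibitor array (red diamonds) lies to the left of the other 3, Acta2 is nearly level in all 4, and for Id1, Id2, Id4 and Atoh8 the red diamond lies to the right.

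The collagens were lower too. Of 21 measured, 7 were at least 2-fold lower (2.52% of all clusters) and 0 were at least 2-fold higher (2.84%). A negative difference was seen in 18, and the list median was -0.70. Col1a1, a chain of type I collagen, was at 16.76 in GHMT, 16.34 with the EP4 antagonist, 16.28 with the Wnt inhibitor and 15.28 with the TGFb inhibitor, 2.79-fold lower (limma adjusted p = 0.108). Col1a2, the partner chain, was at 14.95, 15.38, 14.30 and 12.14 in the same order, 7.01-fold lower (limma adjusted p = 0.0705). Col5a2, a chain of type V collagen that starts type I fibrils, fell 8.34-fold, from 12.63 to 9.57, with 13.05 and 12.18 in the other 2 arrays (limma adjusted p = 0.0313).

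Col5a1, Col3a1 and Col10a1 differed by -1.95, -1.20 and -1.09, and Col11a1 was at 6.22 in GHMT and at background with the inhibitor. Col10a1 was higher than GHMT (8.44) with the EP4 antagonist (11.11) and the Wnt inhibitor (9.94) and lower with the TGFb inhibitor (7.35). The basement membrane chains Col4a1 and Col4a2 were lower by less than 2-fold (-0.91 and -0.93). In 6 of the 7 the inhibitor array was at least 2-fold below each of the other 3, and 1 of the 21, Col5a2, fell in the limma fit.

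The promoter of Col1a2 is shown because it is a textbook TGFb target and was among the lowest collagens. The stretch covers the 250 bases before the gene start on the plus strand (chr6:4505368-4505617, GRCm38.p6, RefSeq), with a CAGACA, the core bound by Smad proteins, in capitals.
Col1a2: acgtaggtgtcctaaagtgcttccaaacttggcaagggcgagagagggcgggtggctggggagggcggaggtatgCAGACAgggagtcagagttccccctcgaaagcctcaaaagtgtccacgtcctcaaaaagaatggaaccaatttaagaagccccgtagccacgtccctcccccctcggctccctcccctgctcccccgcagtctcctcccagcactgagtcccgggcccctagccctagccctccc
The letters CAGACA, searched on both strands, occur in 5223 of 27025 promoters of this length (19.3%). They occur in 5 of 17 collagens with a promoter in the table (29.4%) and in 5 of 21 TGFb response genes (23.8%). Of 7 TGFb response genes that were at least 2-fold lower and had a promoter in the table, 0 held these letters in this window.

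Enzymes that modify and crosslink collagen had a list median of -0.55. At least 2-fold lower were 4 of 17 (2.52% of all clusters), and 1 was at least 2-fold higher (2.84%). Lox, lysyl oxidase, was at 17.85 in GHMT, 18.29 with the EP4 antagonist, 18.14 with the Wnt inhibitor and 16.23 with the TGFb inhibitor, 3.07-fold lower (limma adjusted p = 0.133). Plod2, a lysyl hydroxylase, was 3.56-fold lower and P4ha2, a prolyl hydroxylase subunit, 3.18-fold lower. For P4ha2 the EP4 antagonist (11.46) and the Wnt inhibitor (11.56) also lay below GHMT (12.50), above the TGFb inhibitor (10.83). Pcolce2, an enhancer of procollagen cleavage, was 2.83-fold higher.

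Among matrix glycoproteins, 7 of 28 were at least 2-fold lower (2.52% of all clusters) and 3 were at least 2-fold higher (2.84%). Fn1, fibronectin, was at 17.93 in GHMT, 17.44 with the EP4 antagonist, 17.76 with the Wnt inhibitor and 15.43 with the TGFb inhibitor, and it lay between 18.32 and 18.70 in set 1. It fell 5.66-fold (limma difference -2.40 ± 0.28, SE, adjusted p = 0.0396). Fbln2, a fibulin, fell 6.19-fold (limma adjusted p = 0.0427), and Fbn2, a fibrillin, fell from 7.90 to background, at least 3.83-fold (limma adjusted p = 0.0313), although the Wnt inhibitor array was at background too (5.75). Postn, periostin, was at 11.28, 11.53, 10.90 and 8.64 in GHMT and with the EP4 antagonist, Wnt inhibitor and TGFb inhibitor, 6.23-fold lower (limma adjusted p = 0.087). In the other direction, Efemp1, another fibulin, was at 16.48 in GHMT and 17.83 with the inhibitor, and 16.30 with the Wnt inhibitor.

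Proteoglycans were split, with 5 of 23 at least 2-fold lower (2.52% of all clusters) and 3 at least 2-fold higher (2.84%). The list median was 0.08. Has2, the hyaluronan synthase, fell 6.92-fold, from 9.25 to 6.46 (limma adjusted p = 0.046), and Aspn, asporin, fell 6.02-fold, from 10.15 to 7.56 (limma adjusted p = 0.0385). Bgn, biglycan, differed by -1.28, whereas its relative Dcn, decorin, differed by 1.15 and Prelp by 2.04. Dcn was at 15.98 in GHMT, 14.28 with the EP4 antagonist, 16.32 with the Wnt inhibitor and 17.13 with the TGFb inhibitor, so the inhibitor array was the highest and the EP4 antagonist array the lowest.

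Matrix proteases and their inhibitors had 8 of 27 at least 2-fold lower (2.52% of all clusters) and 2 at least 2-fold higher (2.84%). Of these, 7 and 1 were above background in at least 1 of the 2 arrays. Besides Adam12, the 3 that fell in the limma fit were Mmp10, from 7.90 to background (at least 3.83-fold, adjusted p = 0.0313), Adamts6, from 7.49 to background (at least 2.88-fold, adjusted p = 0.0455), and Adamts12, from 10.04 to 7.87 (4.50-fold, adjusted p = 0.0427). All 3 are metalloproteases, and for each the other 2 arrays of set 2 lay within 0.36 of GHMT. Mmp3 and Mmp13 were lower with the TGFb inhibitor (-2.12 and -1.26) and higher with the Wnt inhibitor, at 14.11 and 13.10 against 12.20 and 11.05 in GHMT. Adamts5, an aggrecan-cleaving protease, was at 9.78 in GHMT, 11.28 with the TGFb inhibitor and 12.47 with the EP4 antagonist.

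Contractile genes of the myofibroblast did not move as a group. Of 29 measured, 5 were at least 2-fold higher (2.84% of all clusters) and 4 at least 2-fold lower (2.52%). The list median was -0.01. Acta2, smooth muscle alpha-actin and the usual myofibroblast marker, was at 18.36 in GHMT, 18.56 with the EP4 antagonist, 18.52 with the Wnt inhibitor and 18.32 with the TGFb inhibitor (limma difference -0.06 ± 0.26, SE, adjusted p = 0.973). Tagln, transgelin, was at 15.03, 15.79, 14.49 and 13.89 in the same order, 2.20-fold lower. Cnn1, calponin, was at 12.66 in GHMT, 13.40 with the EP4 antagonist and 10.70 with the TGFb inhibitor, and the Wnt inhibitor array was low as well (-1.66 against GHMT). Smtn, smoothelin, was 2.95-fold lower and lay within 0.33 of GHMT in the other 2 arrays.

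Pdlim3, an actinin-associated LIM protein of muscle, had the lowest difference after Erv3 among the named genes. It was at 14.86 in GHMT, 14.73 with the EP4 antagonist, 13.68 with the Wnt inhibitor and 10.23 with the TGFb inhibitor, and between 12.82 and 14.05 in set 1. Pdlim3 fell 24.8-fold (limma difference -4.30 ± 0.45, SE, adjusted p = 0.0321). Lrrc15, a membrane protein of TGFb-activated fibroblasts, fell from 9.06 to background, at least 8.56-fold (limma adjusted p = 0.0173), with 8.83 for the EP4 antagonist and 7.11 for the Wnt inhibitor. In set 1 Lrrc15 was at 5.39 to 6.48, near background in all 4 arrays.

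Other genes with large differences included some outside the lists. Fam20a, a pseudokinase of the secretory pathway, fell 15.3-fold, from 11.63 to 7.69 (limma adjusted p = 0.017), and Ncam1, a neural cell adhesion molecule, fell 11.9-fold, from 14.17 to 10.60 (limma adjusted p = 0.0226). Pappa, a protease that frees IGF from its binding proteins, fell 11.5-fold, from 10.02 to 6.50 (limma adjusted p = 0.0226), and was at 10.27 and 11.47 in the other 2 arrays. Each of these was at least 2-fold below all other arrays of set 2. C1qtnf3, a secreted protein of the C1q family, fell from 9.25 to background, at least 9.77-fold (limma adjusted p = 0.0447), and Tubb2b, a tubulin, from 8.70 to background, at least 6.67-fold (limma adjusted p = 0.0313). Edil3, a matrix ligand of integrins, was at 6.76 in GHMT and at background with the inhibitor, at least 1.74-fold lower (limma adjusted p = 0.0505), and Serinc2 was 10.5-fold lower (limma adjusted p = 0.059).

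For some of the lowest genes the reference array mattered. Erv3, an endogenous retroviral sequence whose copies may share probes, was at 12.45 in GHMT, 9.32 with the EP4 antagonist, 11.28 with the Wnt inhibitor and 7.51 with the TGFb inhibitor, 30.7-fold lower than GHMT (limma adjusted p = 0.108). Ppbp, a platelet chemokine, was at 11.89 in GHMT, 9.63, 7.45 and 8.24 in the same order, so the Wnt inhibitor array was lower still and GHMT was the high array (limma adjusted p = 0.0735).

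Several direct targets of BMP signalling, the branch of the family that runs through Smad1 and Smad5, were higher. Of 22 measured BMP ligands, antagonists and targets, 6 were at least 2-fold higher (2.84% of all clusters). Chrdl1 was the 1 at least 2-fold lower (2.52%), but at background in both arrays. The list median was 0.10, and 10 of the 22 lay at background in both arrays. Id1, Id2, Id3 and Id4, which inhibit helix-loop-helix transcription factors and are induced by BMP, differed by 2.06, 2.08, 1.87 and 2.42. Atoh8, a helix-loop-helix factor, rose 5.62-fold, from 5.96 to 8.45 (limma difference 2.55 ± 0.27, SE, adjusted p = 0.0322).

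The order of the 4 arrays differed among these genes. Id2 and Atoh8 were also higher than GHMT with the Wnt inhibitor, by 1.30 and 1.32. Id1 was at 9.27 in GHMT, 8.28 with the EP4 antagonist, 11.21 with the Wnt inhibitor and 11.33 with the TGFb inhibitor, so both the Wnt and TGFb inhibitor arrays were high (limma adjusted p = 0.0701). Id4 was at 6.65, 5.48, 6.56 and 9.07 in the same order, so the TGFb inhibitor array was the high one (limma adjusted p = 0.0847). Grem1, a BMP antagonist, was at 14.24 in GHMT, 15.67 with the Wnt inhibitor and 16.01 with the TGFb inhibitor. The BMP ligands Bmp2, Bmp4 and Bmp6 were higher by 0.89, 0.84 and 0.84, each under 2-fold.

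The interferon response list had the highest median of the 37 lists. Type I interferon turns on antiviral genes through interferon-stimulated response elements in front of them. Of 28 measured members, 21 were at least 2-fold higher with the TGFb inhibitor (2.84% of all clusters) and 0 at least 2-fold lower (2.52%). Above background in at least 1 of the 2 arrays were 20 of the 21, and 8 of the 28 lay at background in all 8 arrays. All 28 differences were positive, from 0.01 to 6.43, the median was 2.10, and 10 rose in the limma fit. The list median level was 5.54 in GHMT, 5.20 with the EP4 antagonist, 8.96 with the TGFb inhibitor and 8.82 with the Wnt inhibitor.

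The Wnt inhibitor array was high as well. Against the shared GHMT array, 21 of the 28 were at least 2-fold higher with the Wnt inhibitor, where 2.53% of all clusters were, and the median was 2.24. Between the TGFb and Wnt inhibitor arrays, 0 members were at least 2-fold higher and 3 were at least 2-fold lower with the TGFb inhibitor (1.95% and 2.26% of all clusters), with a median of -0.29. In set 1 the list median level was 6.06 in GHMT, 6.98 with diclofenac, 5.06 with the EP4 antagonist and 6.82 with diclofenac plus PGE2. All 17 measured leukocyte markers lay at background in both arrays compared.

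Ifit1, an antiviral protein that binds foreign RNA, was at 5.15 in GHMT, 5.26 with the EP4 antagonist, 11.61 with the Wnt inhibitor and 11.58 with the TGFb inhibitor. GHMT was at background, so Ifit1 rose at least 51.4-fold (limma difference 6.03 ± 0.50, SE, adjusted p = 0.023). Irf7, the transcription factor that amplifies the interferon response, was at 5.52, 4.80, 11.53 and 10.86 in the same order and rose at least 31.2-fold (limma adjusted p = 0.00745). Oasl2, a relative of the oligoadenylate synthetases, rose at least 29.9-fold, and Usp18, which removes Isg15 from proteins, at least 14.4-fold (limma adjusted p = 0.0321 and 0.0231).

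Ifit3 was at 5.83 in GHMT and 11.16 with the TGFb inhibitor, at least 38.4-fold higher, but the EP4 antagonist array was at 8.26 and the limma adjusted p was 0.12. Its near copy Ifit3b, which may share probes, was at least 17.2-fold higher (limma adjusted p = 0.0774). The sensors of viral RNA Ifih1 and Ddx58 were higher by 3.01 and 2.92, Stat2 by 3.33, Irf9 by 2.16 and Irf1 by 1.21. Isg15, a ubiquitin-like protein, was at background in GHMT (3.01) and just above it with the inhibitor (6.09). Apol9a, an apolipoprotein that interferon induces, rose from background to 10.21 (limma difference 4.18 ± 0.47, SE, adjusted p = 0.0368). Ifi207, of the multi-copy family of interferon-induced DNA sensors, rose 38.1-fold, from 9.45 to 14.70 (limma adjusted p = 0.0292), with 11.22 for the EP4 antagonist and 13.66 for the Wnt inhibitor. Copies of that family may share its probes.

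**Figure D4:**
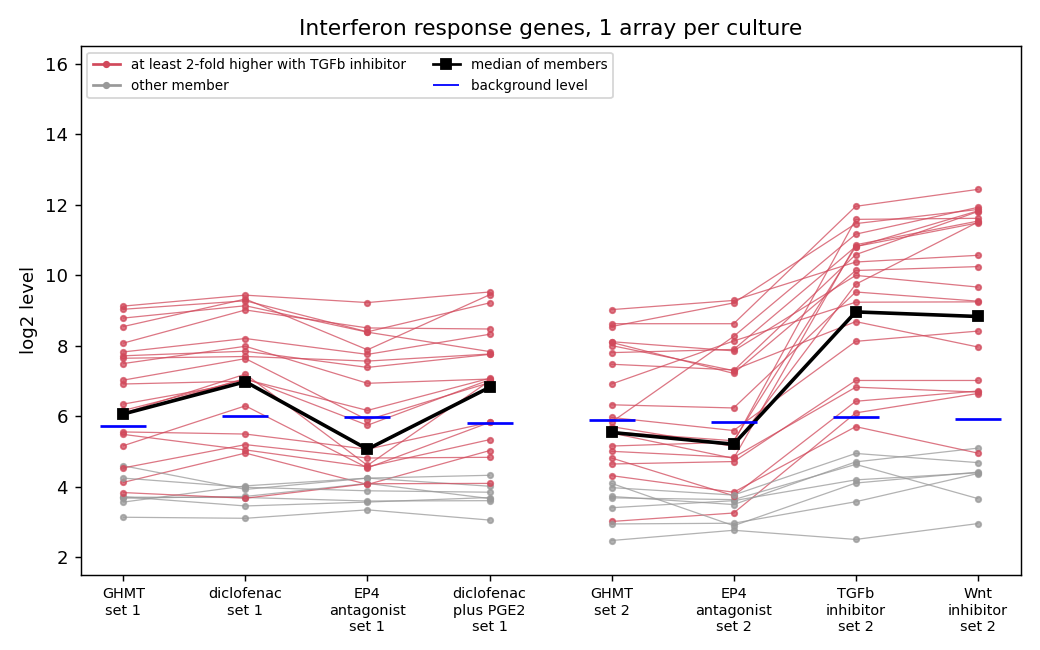
Log2 levels (y axis) of the 28 measured interferon response genes in each of the 8 arrays (x axis), 1 array per culture. Red lines are the 21 members that were at least 2-fold higher with the TGFb inhibitor than with GHMT in set 2, black squares are the list medians and blue bars the background levels. The medians of the TGFb inhibitor (8.96) and Wnt inhibitor (8.82) arrays lie above those of the other 6 arrays, which run from 5.06 to 6.98.

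The promoters of 4 of these genes are shown as examples that hold the core marked here, which not every higher member does. Each stretch is the 250 bases before the gene start, read in the direction of the gene (GRCm38.p6, RefSeq), at chr19:34640639-34640888 on the plus strand, chr19:34583279-34583528 on the plus strand, chr4:156200819-156201068 on the minus strand and chr10:128270248-128270497 on the plus strand. Capitals mark the core of the interferon-stimulated response element, GAAA, any 2 bases and GAAA again, on either strand.
Ifit1: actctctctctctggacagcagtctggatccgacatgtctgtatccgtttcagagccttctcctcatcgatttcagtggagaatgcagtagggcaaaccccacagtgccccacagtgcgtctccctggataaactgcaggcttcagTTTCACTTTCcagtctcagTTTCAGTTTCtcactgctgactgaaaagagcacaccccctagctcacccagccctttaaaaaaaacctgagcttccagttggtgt
Ifit3: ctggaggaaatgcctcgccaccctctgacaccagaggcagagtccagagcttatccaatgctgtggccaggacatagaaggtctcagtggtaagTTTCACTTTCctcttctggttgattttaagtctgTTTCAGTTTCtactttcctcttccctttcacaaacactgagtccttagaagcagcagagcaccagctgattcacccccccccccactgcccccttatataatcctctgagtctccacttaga
Isg15: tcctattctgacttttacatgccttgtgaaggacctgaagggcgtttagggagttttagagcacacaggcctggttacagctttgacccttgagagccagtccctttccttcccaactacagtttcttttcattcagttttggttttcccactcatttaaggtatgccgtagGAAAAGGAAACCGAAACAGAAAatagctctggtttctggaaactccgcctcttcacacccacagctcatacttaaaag
Stat2: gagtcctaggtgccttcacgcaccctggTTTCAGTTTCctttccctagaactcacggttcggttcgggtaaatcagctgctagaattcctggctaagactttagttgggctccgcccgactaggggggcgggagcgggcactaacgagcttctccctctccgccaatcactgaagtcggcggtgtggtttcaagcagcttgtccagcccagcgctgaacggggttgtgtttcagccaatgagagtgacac
Ifit1 and Ifit3 each hold 2 copies, Isg15 holds 3 overlapping ones and Stat2 holds 1. The letters occur in 936 of 27025 promoters of this length (3.46%), in 11 of the 23 list members with a promoter in the table (47.8%), and in 8 of 18 members that were at least 2-fold higher (44.4%). Such a match describes the sequence only.

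Cardiac sarcomere genes were higher than in GHMT in all 3 treated cultures of set 2, by median. With the TGFb inhibitor the list median was 0.24. Of 36 measured sarcomere genes, 10 were at least 2-fold higher (2.84% of all clusters) and 2 at least 2-fold lower (2.52%). Of these, 8 and 1 were above background in at least 1 of the 2 arrays, and 10 of the 36 genes lay at background in both. Against the same GHMT array, 10 were at least 2-fold higher with the Wnt inhibitor and 8 with the EP4 antagonist (2.53% and 1.29% of all clusters), with medians of 0.56 and 0.52. With the mean of the other 3 arrays of set 2 as control, 3 were at least 2-fold higher, 3 were at least 2-fold lower and the median was 0.02.

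Myh6, the alpha-myosin heavy chain, was at background in GHMT (4.19), at 7.25 with the EP4 antagonist, 6.84 with the Wnt inhibitor and 6.88 with the TGFb inhibitor. It was at least 1.98-fold higher than GHMT, which was the low array of the 4 (limma adjusted p = 0.133). Actc1, cardiac alpha-actin, was at 11.64, 14.39, 14.66 and 13.24 in the same order, 3.03-fold above GHMT (limma adjusted p = 0.30). Against the mean of the other 3 arrays its difference turned to -0.32. Tnnt2, cardiac troponin T, was at 17.25, 17.50, 17.85 and 17.51.

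Myl7, the atrial myosin light chain, had the largest difference of the list. It was at 9.60 in GHMT, 11.11 with the EP4 antagonist, 12.26 with the Wnt inhibitor and 13.03 with the TGFb inhibitor, the highest of set 2, and it rose 10.8-fold (limma difference 3.52 ± 0.28, SE, adjusted p = 0.0226). GHMT was again the low array, the TGFb inhibitor array was 0.77 above the Wnt inhibitor array, and against the mean of the other 3 arrays the difference was 2.04. In set 1 Myl7 reached 13.59 with diclofenac and 13.30 with the EP4 antagonist. Mybpc3, the cardiac myosin binding protein, was 3.16-fold higher (limma adjusted p = 0.104), at 10.86 against 9.88 to 10.00 in the other treated arrays of set 2. Myoz2, a Z-disc protein, was at 14.50 with the TGFb inhibitor and between 12.72 and 13.25 in the other 3 arrays. Myl4, an atrial light chain, was lower, at 13.64 in GHMT, 14.80 with the EP4 antagonist, 13.62 with the Wnt inhibitor and 12.44 with the TGFb inhibitor.

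Ryr2, the calcium release channel of heart muscle, was at 9.41 in GHMT, 9.93 with the EP4 antagonist, 11.41 with the Wnt inhibitor and 11.10 with the TGFb inhibitor, 3.23-fold higher (limma adjusted p = 0.0774). It was among 2 of 27 calcium handling and channel genes at least 2-fold higher (2.84% of all clusters). The count at least 2-fold lower was 0 (2.52% of all clusters). Of the 27, 11 lay at background in both arrays. Nppa, the atrial natriuretic peptide, was at 15.40 in GHMT and at 16.77 to 17.09 in the 3 treated arrays. Popdc2, a membrane protein of heart and muscle, was at 9.72 in GHMT, 10.88 with the EP4 antagonist, 10.94 with the Wnt inhibitor and 11.85 with the TGFb inhibitor (limma adjusted p = 0.0696). For Nppa, Myh6 and Actc1 the GHMT array was the low one, and for Popdc2 the TGFb inhibitor array was also the highest.

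Myl1 had the largest rise of any gene above background in both arrays. It was at 8.33 in GHMT, 10.36 with the EP4 antagonist, 10.89 with the Wnt inhibitor and 14.47 with the TGFb inhibitor, and between 8.82 and 11.62 in set 1. It rose 70.5-fold (limma difference 6.09 ± 0.27, SE, adjusted p = 0.00745). Of 24 skeletal muscle genes on its list, 5 were at least 2-fold higher (2.84% of all clusters), yet 19 lay at background in both arrays. Only 3 of the 5 were above background in at least 1 of the 2 arrays. Against the same GHMT array, 4 were at least 2-fold higher with the EP4 antagonist (1.29%) and 3 with the Wnt inhibitor (2.53%). Myh8, the perinatal myosin heavy chain, was at background in GHMT and at 7.35 with the inhibitor, at least 2.74-fold higher, and Tnnt3, fast troponin T, was 2.04-fold higher. Ckm, muscle creatine kinase, differed by -0.04.

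**Figure D5:**
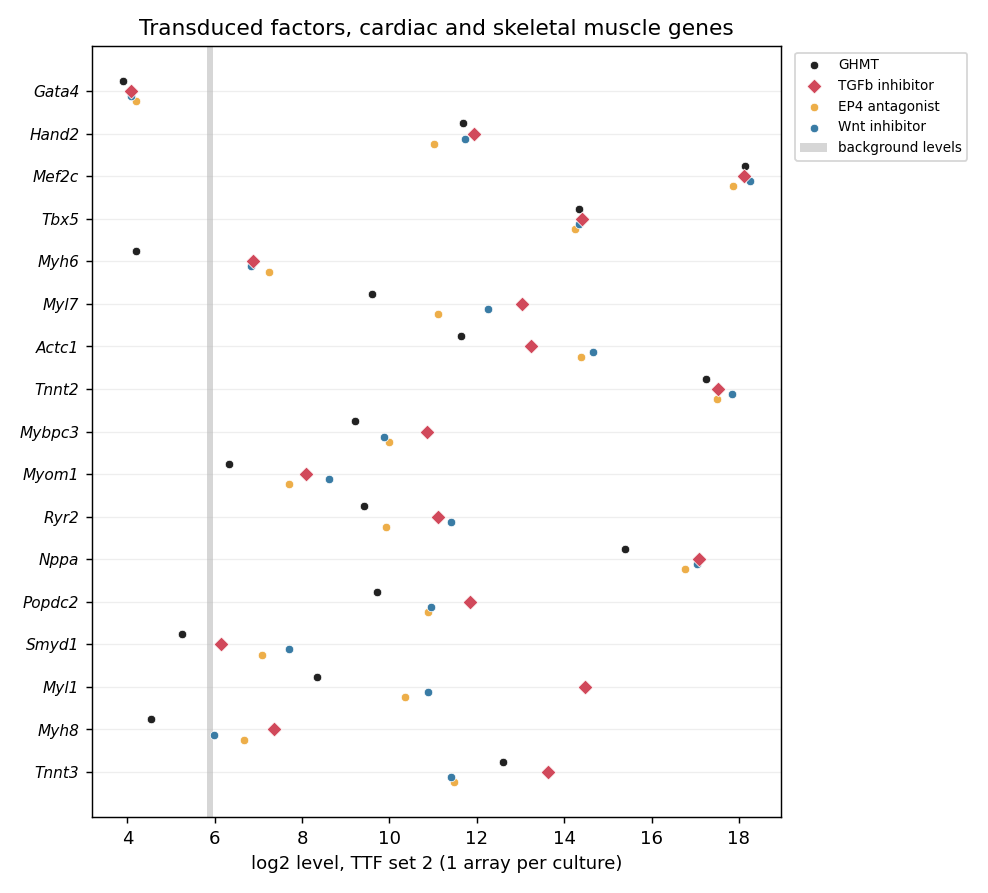
Log2 levels (x axis) in the 4 arrays of set 2, 1 array per culture, of the transduced factors and of cardiac and skeletal muscle genes (rows), with points shifted vertically and the grey band for the background levels. Myl1 at 14.47 and Myl7 at 13.03 are highest with the TGFb inhibitor (red diamonds), whereas for Myh6, Actc1 and Nppa the 3 treated arrays lie together to the right of GHMT.

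Fibroblast identity genes tended to be higher, with a list median of 0.37, though 7 of 23 had a negative difference. At least 2-fold higher were 6 (2.84% of all clusters), and 0 were at least 2-fold lower (2.52%). Only 5 of the 6 were above background in at least 1 of the 2 arrays, and 7 of the 23 lay at background in both. Against the same GHMT array, 5 were at least 2-fold higher with the Wnt inhibitor (2.53% of all clusters). Sfrp2, a secreted Wnt modulator of dermal fibroblasts, was at 9.67 in GHMT, 10.38 with the EP4 antagonist, 13.86 with the Wnt inhibitor and 13.74 with the TGFb inhibitor, 16.8-fold higher (limma adjusted p = 0.203). In set 1 Sfrp2 lay between 12.75 and 14.86, so the GHMT and EP4 antagonist arrays of set 2 were the low ones of the series. Dpt, dermatopontin, was 4.92-fold higher and Thy1, a surface marker of fibroblasts, 2.35-fold higher. For these 3 genes the Wnt inhibitor array was also high. The fibroblast markers Thy1 and S100a4 were well above background in both arrays, Thy1 at 11.10 in GHMT and 12.33 with the inhibitor and S100a4 at 13.34 and 14.67.

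Markers of other cell types were checked as whole lists. All 17 leukocyte genes and all 12 endothelial genes lay at background in both arrays, as did 14 of 16 keratinocyte, 12 of 15 cartilage and bone, and 9 of 11 neural genes. Krt19, an epithelial keratin, rose 6.28-fold, from 7.33 to 9.98 (limma adjusted p = 0.0467), while Dsp, desmoplakin, was level (13.62 and 13.20). Stmn2, a neuronal tubulin-binding protein, was at 7.25 in GHMT and at 10.52 to 11.75 in all 3 treated arrays.

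Several secreted growth factors rose. Of 34 growth factors, receptors and binding proteins, 7 were at least 2-fold higher (2.84% of all clusters) and 4 at least 2-fold lower (2.52%). Igfbp5, an IGF binding protein, was at 10.73 in GHMT, 9.37 with the EP4 antagonist, 12.60 with the Wnt inhibitor and 13.77 with the TGFb inhibitor and rose 8.22-fold (limma adjusted p = 0.0231). Vegfd, a lymphatic growth factor, rose 7.31-fold, from 10.38 to 13.25, with 9.85 and 10.63 in the other 2 arrays (limma adjusted p = 0.0282). Kitl, the stem cell factor, rose 5.31-fold, from 11.34 to 13.75 (limma adjusted p = 0.0362). Igfbp5 lay between 12.76 and 14.07 in set 1, a range that holds its level with the TGFb inhibitor. Pdgfc, Flt1, Igf1 and Fgfr1 were lower by 1.86, 1.76, 1.35 and 1.13 on the log2 scale.

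Chemokines and complement genes were also among the higher genes. Ccl11, eotaxin, rose from background to 8.39, at least 5.63-fold (limma adjusted p = 0.0282), and was at 5.12 and 5.15 with the EP4 antagonist and the Wnt inhibitor. Ccl2, the monocyte chemokine, was at 10.46 in GHMT, 11.33 with the EP4 antagonist, 10.84 with the Wnt inhibitor and 13.29 with the TGFb inhibitor, 7.11-fold higher (limma adjusted p = 0.156). Il6 was 2.46-fold lower, and the EP4 antagonist array was lower still (6.96). Of 35 inflammatory genes, 7 were at least 2-fold higher and 3 at least 2-fold lower, where 2.84% and 2.52% of all clusters were. Of these, 5 and 3 were above background in at least 1 of the 2 arrays, and 17 of the 35 lay at background in both. Of 13 complement and acute phase genes, 6 were at least 2-fold higher, where 2.84% of all clusters were. Only 4 of the 6 were above background in at least 1 of the 2 arrays. The list median was 0.87, but 8 of the 13 lay at background in both arrays. Serping1, the C1 inhibitor, had the largest difference of those above background, at 7.65 in GHMT, 8.59 with the EP4 antagonist, 10.03 with the Wnt inhibitor and 10.17 with the TGFb inhibitor.

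Members of the CCN family went in different directions. Ccn3, an antifibrotic relative of Ccn2, was at 7.90 in GHMT, 9.07 with the EP4 antagonist, 8.60 with the Wnt inhibitor and 12.88 with the TGFb inhibitor and rose 31.6-fold (limma adjusted p = 0.0313). In set 1 Ccn3 lay between 9.44 and 11.78, so it was lower in the other arrays of set 2 than in any array of set 1. Ccn4, a target of Wnt signalling, fell 5.58-fold, from 13.20 to 10.72, with 13.28 and 13.30 in the other 2 arrays (limma adjusted p = 0.0385). Ccn5, which lacks a domain of its relatives, was 2.99-fold higher. Among 27 Wnt targets and antagonists, 4 were at least 2-fold higher (2.84% of all clusters) and 1 at least 2-fold lower (2.52%). Nkd2, an inhibitor of Wnt signalling, rose 4.86-fold, from 6.69 to 8.97 (limma adjusted p = 0.0385).

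Prostanoid genes touch the main subject of the series, the route from cyclooxygenase-2 to the EP4 receptor. Ptgs2, cyclooxygenase-2, was at 12.86 in GHMT, 13.72 with the EP4 antagonist, 11.61 with the Wnt inhibitor and 10.32 with the TGFb inhibitor. It fell 5.82-fold (limma difference -2.73 ± 0.33, SE, adjusted p = 0.0447), and the inhibitor array was the lowest of set 2. In set 1 Ptgs2 was at 9.47 to 10.03 in all 4 arrays, so the level with the TGFb inhibitor was close to that of set 1. Ptger3, the EP3 receptor of prostaglandin E2, was at 6.54 in GHMT, 5.90 with the EP4 antagonist, 5.78 with the Wnt inhibitor and 8.92 with the TGFb inhibitor, 5.21-fold higher (limma adjusted p = 0.0774). Slco2a1, a prostaglandin transporter, was 4.89-fold higher (limma adjusted p = 0.0582). Of 18 prostanoid genes (median 0.07), 4 were at least 2-fold higher (2.84% of all clusters) and 2 at least 2-fold lower (2.52%). Of these, 2 and 2 were above background in at least 1 of the 2 arrays.

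Cell cycle genes were lower, with the lowest median of the 37 lists. Of 30 measured, 16 were at least 2-fold lower (2.52% of all clusters) and 0 were at least 2-fold higher (2.84%). The differences ran from -1.93 to 0.07, with 29 negative and a median of -1.02. Mki67, a marker of dividing cells, was at 13.09 in GHMT, 12.55 with the EP4 antagonist, 12.31 with the Wnt inhibitor and 11.76 with the TGFb inhibitor, 2.51-fold lower (limma adjusted p = 0.138). Plk1, a mitotic kinase, was at 11.13, 11.28, 10.19 and 9.20 in the same order, 3.81-fold lower (limma adjusted p = 0.0654).

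The list median level was 9.56 in GHMT, 9.09 with the EP4 antagonist, 8.82 with the Wnt inhibitor and 8.66 with the TGFb inhibitor. By the differences from GHMT the Wnt inhibitor array was also low, and the EP4 antagonist array was nearer to GHMT. The median against GHMT was -0.78 with the Wnt inhibitor, with 5 members at least 2-fold lower (1.57% of all clusters), and -0.16 with the EP4 antagonist, with 1 member at least 2-fold lower (1.45% of all clusters). With the mean of the other 3 arrays as control, 4 members were at least 2-fold lower and the median was -0.59, and for 0 of the 30 was the TGFb inhibitor array at least 2-fold below all others. Of 15 p53 targets 0 were at least 2-fold apart (5.36% of all clusters), and their median was 0.00. Cholesterol synthesis genes were lower in 14 of 14, with a median of -0.62, and 2 were at least 2-fold lower, where 2.52% of all clusters were. The Wnt inhibitor array was low for this list too (median -0.48 against GHMT), and the EP4 antagonist array was level (0.01). Between the TGFb and Wnt inhibitor arrays the median was -0.12.

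Of 19 fat cell genes, 10 were above background in at least 1 of the arrays. At least 2-fold higher were 3 of the 19 (2.84% of all clusters), and only 2 of these were above background. With the Wnt inhibitor 3 were also at least 2-fold higher than in GHMT (2.53% of all clusters). Lpl, lipoprotein lipase, rose 6.63-fold, from 9.57 to 12.30 (limma adjusted p = 0.0321), and was at 12.07 with the Wnt inhibitor. Pparg, the regulator of fat cell formation, was at background in GHMT and at 6.85 and 7.12 with the TGFb and Wnt inhibitors. Adiponectin, Adipoq, lay at background in both arrays.

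The remaining large rises were in genes outside the lists. Svs3b and Svs3a, near copies named for the seminal vesicle whose probes may be shared, rose 44.6-fold and at least 5.71-fold (limma adjusted p = 0.00745 and 0.017). Svs3b was at 6.67 in GHMT, 5.37 with the EP4 antagonist, 10.29 with the Wnt inhibitor and 12.15 with the TGFb inhibitor. Ly6c1, a surface protein of the multi-copy Ly6 family, was at 11.77, 11.28, 13.08 and 16.46 in the same order and rose 25.8-fold (limma adjusted p = 0.017). Npy6r, a neuropeptide Y receptor gene, rose from background to 8.75, at least 7.23-fold (limma adjusted p = 0.017), and was at background in the other 3 arrays of set 2. For Svs3b, Svs3a, Ly6c1 and Npy6r the TGFb inhibitor array was at least 2-fold above every other array of set 2.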

How the data were processed

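RNA (100 ng total RNA per sample, biotin-labelled) was hybridised to Clariom S Mouse arrays. The deposited values are log2 levels, which the authors made with the SST-RMA method (Affymetrix Expression Console 1.4), per the submitters' processing notes and design text. Whether both sets were normalized together and the genome build of the probes are not known here.

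Of 28846 rows, 6640 control probe sets were left out. Platform annotation joined a symbol to 19572 of 22206 clusters, and the other 2634 are unnamed here. For a symbol on more than 1 cluster (55 of 19505), the cluster with the highest mean was used. Each array's background level is the 95th percentile over 23 background probe sets (5.73 to 5.99). If the lower array was at background, the fold is a lower bound against that level.

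Differences were counted at 2-fold. limma 3.58.1 in R 4.3.3 fitted group and TTF set (lmFit, eBayes, two-sided, Benjamini-Hochberg) and was tested on simulated data. The TTF set number paired the samples, since GHMT and EP4 antagonist arrays deviated together across clusters (r = 0.724). Independence of the sets is not stated in the labels, and the p-values reflect only how these samples vary.

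Members and gene lists (37 lists, 807 of 864 entries matched) were chosen with earlier results of these data known. Genes were named by rule, namely the 15 largest differences each way above background (predicted genes skipped), up to 4 members per list, and a fixed set of pathway and marker genes, and further list members are named with their difference. Alternatives were quantile normalization, centring, background filters and floors, other folds, another control and other limma settings. The number of arrays limits the precision.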

Additional observations from a re-analysis of the deposited data

How the results depend on the processing

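The counts of 630 clusters higher and 560 lower with the TGFb inhibitor kept within 1.5 times under quantile normalization, median centring, the filter at background, and the difference fitted by limma with the block. Clusters at least 2-fold higher became 419 with a filter at the highest background probe set, 1835 at 1.5-fold and 138 at 4-fold. Clusters at least 2-fold lower became 371 when values below background were raised to it, 347 against the mean of the other 3 arrays of set 2, 1834 at 1.5-fold and 68 at 4-fold. The 103 limma calls with the TTF set as replicate block became 3 with no replicate block, 364 with a trend and robust prior, 494 after quantile normalization and 206 among clusters above background in at least 1 array. The cause of these changes was not tested, except that the other folds and the filters change the count by construction. The adjusted p-values depend strongly on these settings and on 1 residual degree of freedom. Among the named genes at least 2-fold apart from GHMT, Actc1 changed sign, with a difference of -0.32 against the mean of the other 3 arrays. Some smaller differences also changed sign under that control, among them Smyd1 (0.88 to -0.54) and Alpl (-0.16 to 0.53). Under that control 79 of 163 named genes and 17 of 37 list medians moved by more than the reference spread, under quantile normalization 0 genes and 5 medians did, and with values raised to background 24 genes and 15 medians did. Leaving out a replicate was not possible, since each arm has 1 array and the limma fit without a GHMT or EP4 antagonist array has 0 residual degrees of freedom.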
